A study of Homo sapiens with 6 samples.

Results

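The genes described here are 10 regulators of the G1 phase of the cell cycle, measured in HepG2 cells with and without overexpression of PBLD. They are the D cyclins CCND1, CCND2 and CCND3, the E cyclins CCNE1 and CCNE2, the kinases CDK2, CDK4 and CDK6, and the inhibitors CDKN1A (p21) and CDKN1B (p27). They were chosen by name, as every probe whose annotated symbol is one of these, which gave 15 of 47323 probes and 10 of 20046 genes. The choice was made with earlier results of these data known, so counts of members beside the share over all genes are a description. HepG2 is a human cell line established from a liver tumour, and PBLD takes its name from a domain like those found in enzymes of phenazine biosynthesis. Total RNA from 3 samples labelled PBLD overexpressed and 3 labelled control was measured on Illumina bead arrays, with an array for each sample. How PBLD was introduced, whether an empty vector was put into control cells and whether the overexpressing cells were 1 clone are not given in the sources used here. The brightest PBLD probe, ILMN_1789653, gave 12.62, 12.84 and 12.72 in PBLD arrays, against 8.002, 8.074 and 8.181 in control arrays (log2 intensity), so every array matched its label. Another PBLD probe, ILMN_2304404, also rose, with a log2 change of 4.40. The PBLD probes ILMN_1699684 (-0.05) and ILMN_1760748 (0.05) did not pass and were above background on no array. The labels do not say whether samples within a group came from separate cultures. The p-values therefore reflect the spread among these 6 arrays, possibly a technical one, and precision is limited by how few arrays there are.

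D cyclins are made when growth signals reach a resting cell, and they bind and activate CDK4 and CDK6. E cyclins appear later in G1 and activate CDK2. Both kinds of kinase phosphorylate the RB protein, which then releases E2F factors to switch on the genes of DNA replication. The inhibitors p21 and p27 bind cyclin-CDK complexes, block those that hold CDK2, and can also help D cyclins assemble with CDK4. The p53 protein induces p21, and much of the control of p27 acts on the protein, which the ligase subunit SKP2 marks for degradation.

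On the arrays, CDK4 and CDKN1B were lower in PBLD cells, while CCND3, CDKN1A, CDK2, CCND2 and CCNE1 were higher. CDK4 transcript signal was 1.69-fold lower and that of CDKN1B 1.65-fold lower on its brighter probe, whereas CCND3 was 1.59-fold higher and CDKN1A 1.38-fold higher. CCND1, CDK6 and CCNE2 did not pass. With each gene represented by its brightest probe, 5 of the 10 genes rose, 2 fell and 3 did not pass at a limma adjusted p of 0.05. With a gene's probes averaged, 2 rose (CCND3 and CDK2) and 2 fell. After normexp background correction 2 rose (CCND3 and CCND2) and 2 fell. CDK4 and CDKN1B were those that fell in both. Over all 20046 genes the same test called 10% in either direction, 5.81% as higher and 4.2% as lower, and among the 10876 genes above background on at least 3 arrays it called 18.4%. By probe, 8 of the 15 passed, 5 higher and 3 lower, against 6.08% of all probes. The median log2 change was 0.25 over the 10 genes and 0.0088 over all genes. In bulk RNA, a different share of cells in a given cycle phase and a different amount of RNA per cell cannot be told apart.

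The start regions of the members that fell, and of the inhibitor that rose, are shown because CDK4 and CDKN1B fell together while CDKN1A went the other way. Each run is the 250 bases before the gene's start on its own strand, from RefSeq on GRCh38.p14. CDK4 lies at chr12:57752311-57752560 on the minus strand, CDKN1B at chr12:12717118-12717367 on the plus strand and CDKN1A at chr6:36678464-36678713 on the plus strand. Capitals mark matches on either strand to the E-box CACGTG, the CCAAT box (CCAAT) or the GC box (GGGCGG), which are sequences known to be bound by MYC and its relatives, by NF-Y and by SP1.
CDK4: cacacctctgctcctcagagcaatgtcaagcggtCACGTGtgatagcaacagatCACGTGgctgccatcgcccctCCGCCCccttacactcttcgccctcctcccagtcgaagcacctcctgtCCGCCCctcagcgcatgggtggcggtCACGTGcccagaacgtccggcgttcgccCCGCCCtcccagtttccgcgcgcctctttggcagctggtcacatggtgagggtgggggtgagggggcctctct
CDKN1B: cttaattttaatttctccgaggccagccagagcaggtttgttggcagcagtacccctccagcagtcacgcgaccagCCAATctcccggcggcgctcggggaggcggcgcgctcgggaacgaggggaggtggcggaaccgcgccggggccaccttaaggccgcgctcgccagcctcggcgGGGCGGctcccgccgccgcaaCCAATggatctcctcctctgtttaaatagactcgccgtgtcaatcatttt
CDKN1A: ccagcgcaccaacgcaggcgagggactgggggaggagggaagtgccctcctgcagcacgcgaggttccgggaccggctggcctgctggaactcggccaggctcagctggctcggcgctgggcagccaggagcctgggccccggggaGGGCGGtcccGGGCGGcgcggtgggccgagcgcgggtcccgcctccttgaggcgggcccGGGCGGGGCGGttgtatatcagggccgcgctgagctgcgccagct
The CDK4 region holds 3 E-boxes, which begin 216, 196 and 101 bases before the start, and 3 GC boxes, with no match to the CCAAT box. Of 35116 RefSeq start regions of the same length, 6.34% hold at least 1 E-box, and 0.0797% hold at least 3. The CDKN1B region holds 2 CCAAT boxes, which begin 174 and 50 bases before the start, and 1 GC box. At least 2 CCAAT boxes are in 9.53% of all regions. The CDKN1A region holds 4 GC boxes, of which the pair nearest the start overlap each other by a base, and at least 4 are in 7.63% of all regions. The E2F site, searched as TTTCCCGC, TTTCGCGC, TTTGCCGC or TTTGGCGC on both strands, matched none of these regions and 2.79% of all. Start regions of 6 of the 10 genes matched in the table, the others being CCND3 with 3 starts, CDK6 with 2 and CCNE1 with 1. Entries on the chromosome that holds CCNE2 were left out before matching, so CCNE2 was not looked up. A match is a description of letters and not a site of binding, and binding was not measured.

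CDK4, the kinase partner of the D cyclins, gave 12.07, 12.09 and 11.96 in the 3 PBLD arrays, against 12.79, 12.85 and 12.74 in the 3 control arrays (log2 intensity, probe ILMN_1689001). Every PBLD array lay below every control array, by far more than the spread within either group (SD 0.070 in PBLD cells and 0.058 in control cells, n = 3 each). The log2 change was -0.75 (SE 0.06, 95% interval -0.89 to -0.62, limma adjusted p = 2.08e-06). Of all genes, 0.574% had a larger size of change.

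CDK6, the other partner of the D cyclins, did not pass. Its probe gave 11.95, 11.93 and 11.88 in PBLD arrays, against 11.87, 11.79 and 11.87 in control arrays. The groups do not overlap, as in 23.4% of all genes and in 3691 of the 10876 above background on at least 3 arrays. The log2 change of CDK6 was 0.08 (95% interval -0.05 to 0.21, limma adjusted p = 0.689). CDK2, the partner of E cyclins, gave 10.59, 10.72 and 10.57 in PBLD arrays, against 10.28, 10.31 and 10.15 in control arrays on its bright probe, ILMN_1665559. All PBLD arrays were above all control arrays, with a log2 change of 0.38 (SE 0.07, adjusted p = 0.00200). The call of CDK2 was lost after normexp background correction, at 0.39 with an adjusted p of 0.0966. The dimmer CDK2 probe, ILMN_1653443, averaged 8.47 ± 0.06 in PBLD cells and 8.38 ± 0.08 in control cells, above the background limit of 8.06 to 8.09 on all 6 arrays, and did not pass (0.08, adjusted p = 0.692). With both probes averaged, the CDK2 change was 0.23 (adjusted p = 0.0398).

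**Figure D1:**
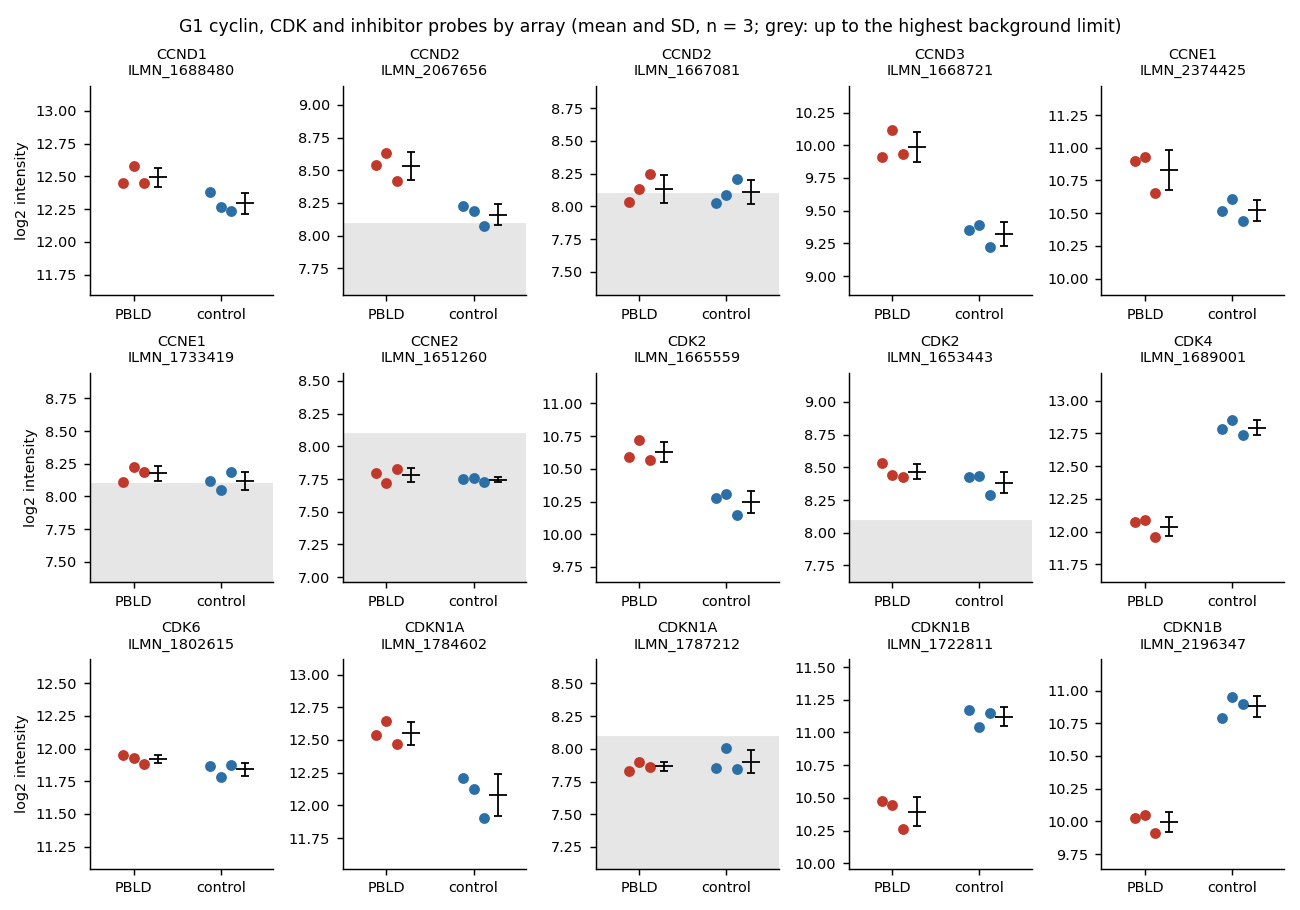
Log2 intensity of each of the 15 member probes (vertical axis, the same span of values in every panel) in the 3 PBLD and 3 control arrays, with each group's mean and SD beside its points. The PBLD arrays lie below the control arrays for CDK4 and both CDKN1B probes and above them for CCND3, while CCNE2 and 1 CDKN1A probe lie in the grey range of background.

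Among the D cyclins, CCND3 moved the most. It gave 9.91, 10.12 and 9.93 in PBLD arrays, against 9.36, 9.39 and 9.22 in control arrays (ILMN_1668721). The groups were separated by more than their own ranges, and the log2 change was 0.67 (SE 0.07, 95% interval 0.51 to 0.82, adjusted p = 2.71e-05). Of all genes, 0.778% had a larger size of change.

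CCND1, the D cyclin that growth factors induce in many cell types, gave 12.45, 12.58 and 12.45 in PBLD arrays, against 12.38, 12.27 and 12.23 in control arrays (ILMN_1688480). All PBLD arrays were above all control arrays by a narrow margin, and the change of 0.20 did not pass (95% interval 0.05 to 0.34, unadjusted p = 0.00977, adjusted p = 0.116). CCND2 was dim. Its brighter probe, ILMN_2067656, gave 8.54, 8.63 and 8.42 in PBLD arrays, against 8.23, 8.19 and 8.07 in control arrays, and the lowest of these was barely above its array's background limit of 8.06. The log2 change was 0.37 (SE 0.07, adjusted p = 0.00355), and after normexp background correction it was 0.71. The dimmer CCND2 probe, ILMN_1667081, averaged 8.14 ± 0.11 in PBLD cells and 8.11 ± 0.09 in control cells and did not pass (0.03, adjusted p = 0.947). With both probes averaged, the CCND2 change was 0.20 and was not called (adjusted p = 0.0536).

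CCNE1, an activator of CDK2, gave 10.90, 10.93 and 10.65 in PBLD arrays, against 10.51, 10.61 and 10.44 in control arrays (ILMN_2374425). The groups did not overlap, but the lowest PBLD array was close to the highest control array. The log2 change was 0.31 (SE 0.08, adjusted p = 0.0249), the weakest call among the 10 genes. It was lost without control replicate 1 (0.30, adjusted p = 0.0867), control replicate 3 (0.27, 0.0983), PBLD replicate 1 (0.27, 0.133) or PBLD replicate 2 (0.26, 0.102), and also after normexp (0.30, adjusted p = 0.246). A second CCNE1 probe, ILMN_1733419, lay at the background limit, with 8.18 ± 0.06 in PBLD cells and 8.12 ± 0.07 in control cells (adjusted p = 0.833). CCNE2, the other E cyclin, was above background on no array, at 7.78 ± 0.06 in PBLD cells and 7.75 ± 0.02 in control cells, and no fold is given for it.

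The inhibitors moved in opposite directions. CDKN1B was measured by 2 probes, and both fell. The brighter, ILMN_1722811, gave 10.47, 10.45 and 10.27 in PBLD arrays, against 11.17, 11.04 and 11.15 in control arrays. The other, ILMN_2196347, gave 10.03, 10.05 and 9.91 in PBLD arrays, against 10.79, 10.95 and 10.90 in control arrays. On each probe all PBLD arrays were well below all control arrays. The log2 changes were -0.73 (SE 0.07, adjusted p = 8.77e-06) and -0.88 (SE 0.07, adjusted p = 5.65e-07), or 1.65-fold and 1.85-fold lower. CDKN1B was the only member with a pair of probes that both lay well above background and both passed.

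CDKN1A gave 12.54, 12.65 and 12.47 in PBLD arrays, against 12.21, 12.13 and 11.90 in control arrays (ILMN_1784602). The PBLD arrays were all higher, although the control arrays spread more widely for this gene (SD 0.16) than for any other member probe. The log2 change was 0.47 (SE 0.08, adjusted p = 0.00143), and the call was lost after normexp (0.43, adjusted p = 0.0857). The second CDKN1A probe, ILMN_1787212, annotated to another transcript accession, was above background on no array. With both probes averaged, the change was 0.22 and was not called (adjusted p = 0.0797).

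**Figure D2:**
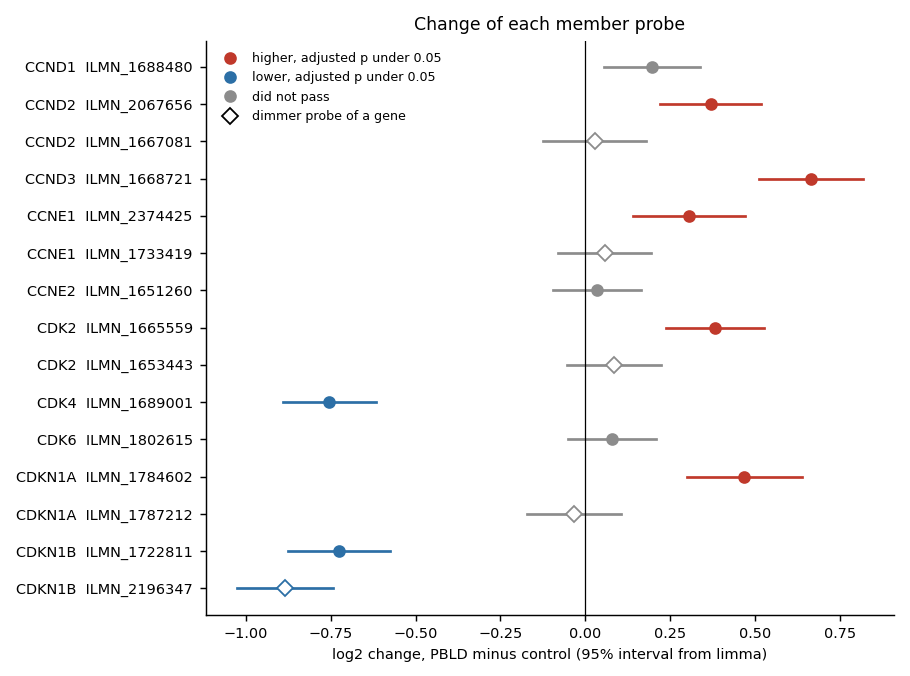
Log2 change, PBLD minus control, of the 15 member probes (horizontal axis) with 95% intervals from limma, coloured by whether the adjusted p was under 0.05. CDK4 and the 2 CDKN1B probes lie between -0.73 and -0.88, CCND3 lies at 0.67, and the dimmer probes of CCND2, CCNE1, CDK2 and CDKN1A have intervals that hold 0.

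Differences between 2 members within an array do not depend on how the arrays were scaled to one another by a constant. They were compared for 4 pairs, chosen with earlier results of these data known. CDKN1A minus CDKN1B was 2.06, 2.20 and 2.20 in PBLD arrays, against 1.04, 1.09 and 0.76 in control arrays, so the change of p21 exceeded that of p27 by 1.19 on the log2 scale. CDK4 minus CDK6 was 0.12, 0.16 and 0.07 in PBLD arrays, against 0.92, 1.07 and 0.87 in control arrays, a difference of changes of -0.83. For CDK4 minus CDK2 that difference was -1.14 and for CCND3 minus CCND1 it was 0.47. In each of the 4 pairs all PBLD arrays lay on one side of all control arrays. Of all single genes 23.4% are separated in this way, as are 3691 of the 10876 above background on at least 3 arrays. The share over other pairs was not computed. Since the pairs were chosen with the members' changes known, their separation is a description and not a test. The exact two-sided permutation p was 0.1 for every pair, and 0.1 after Benjamini-Hochberg adjustment over the 4, which is the smallest that 3 arrays against 3 can give.

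The profiles over the 6 arrays nearest to those of the 3 members with the smallest p were found among 9547 genes above background on all arrays. Likeness was the root-mean-square distance between log2 profiles centred on their own means. Nearest to CDK4 were LOC105379362 (0.039), CRYL1 (0.045) and PLEKHA2 (0.052), and nearest to CDKN1B were PMM1 (0.024), TMEM140 (0.046) and OPTN (0.063). Nearest to CCND3 were CCNA2 (0.034), which encodes cyclin A2, MRPL18 (0.035), a mitochondrial ribosomal protein, and TFDP1 (0.038), the dimer partner of E2F factors. These are the smallest of 9547 distances by choice and are given as a description.

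The genes that act around the members were taken as 7 lists with 77 measured genes. These lists too were chosen with earlier results of these data known, and their counts are a description. Over all 20046 genes 5.81% were called higher. Among genes above background on at least 3 arrays 18.4% were called in either direction. After normexp 245 of all genes were called higher. Of 13 genes of the RB family and E2F factors, 7 rose and 6 did not pass, with a median of 0.26. TFDP1 rose by 0.64 (adjusted p = 3.22e-05), E2F3 by 0.51 (adjusted p = 0.000513), E2F2 by 0.37 (0.00841 as its adjusted p) and E2F7, a repressor of the family, by 0.37 (0.00884). This count was 4 without control replicate 1, control replicate 3 or PBLD replicate 2, 3 without PBLD replicate 1 and 2 after normexp. Of 17 E2F target genes of the G1/S transition, 13 rose and 4 did not pass, with a median of 0.40 (6 rose after normexp). Among them were MCM7 (0.70) and MCM4 (0.59), subunits of the replicative helicase, CDC45, another part of that helicase (0.54), and RRM1, a subunit of ribonucleotide reductase (0.58). Of 5 S and M phase cyclins and CDK1, 4 rose, namely CCNA2 (0.65), CDK1 (0.59), CCNB1 (0.53) and CCNB2 (0.40), and CCNA1 lay at background.

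Among 17 genes for ubiquitin ligases and turnover of G1 regulators, 5 rose and 12 did not pass, with a median of 0.06. Over all genes 5.81% were called higher, and 18.4% of genes above background, as 16 of these 17 were, were called in either direction. Of those that rose, CKS1B (0.49, adjusted p = 0.000752) and SKP2 (0.31, adjusted p = 0.0102) encode the parts of a ligase that recognise p27 protein. DTL (0.35, adjusted p = 0.0109) encodes the subunit that brings p21 to another ligase, and GSK3B (0.31, adjusted p = 0.00897) a kinase that marks cyclin D1 for export and degradation. The count was 3 without control replicate 2, control replicate 3 or PBLD replicate 2, and 0 after normexp in limma, where 5 were higher and 0 lower at an unadjusted p under 0.05. Protein was not measured.

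Of 7 kinases, phosphatases and chaperones acting on G1 CDKs, CDC25A, which removes inhibitory phosphates from CDK2, rose by 0.41 (adjusted p = 0.000918) and CCNH, the cyclin of the CDK-activating kinase, by 0.30 (adjusted p = 0.0142), while 5 did not pass. The list's count was 1 without control replicate 3 or PBLD replicate 1 and 1 with probes averaged, and after normexp it was 0 in limma, where 3 were higher and 0 lower at an unadjusted p under 0.05. Of 5 other CDK inhibitors, the 1 that rose was CDKN3 (0.44, adjusted p = 0.00213), which encodes a phosphatase of CDKs rather than a binding inhibitor, and its call was lost after normexp. The list of transcription factors acting on p21 and p27 has 13 measured genes. It also holds MDM2, a regulator of p53 that is not itself a transcription factor. Of the 13, KLF6 rose by 0.28 (adjusted p = 0.0335) and 12 did not pass, with a list median of 0.01. A count of 1 in 13, like that of 1 in 5 above, is near the shares over the array, where 10% of all genes and 18.4% of those above background were called in either direction. This list's count was 0 without control replicate 2, control replicate 3, PBLD replicate 1 or PBLD replicate 2, and 2 without PBLD replicate 3. MYC, named after its value was seen because the CDK4 start region holds E-boxes, had a log2 change of -0.04 (adjusted p = 0.912), with 12.40 ± 0.02 in PBLD cells and 12.43 ± 0.06 in control cells. MYC protein and its binding were not measured, and a part of MYC in the CDK4 change was not tested.

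**Figure D3:**
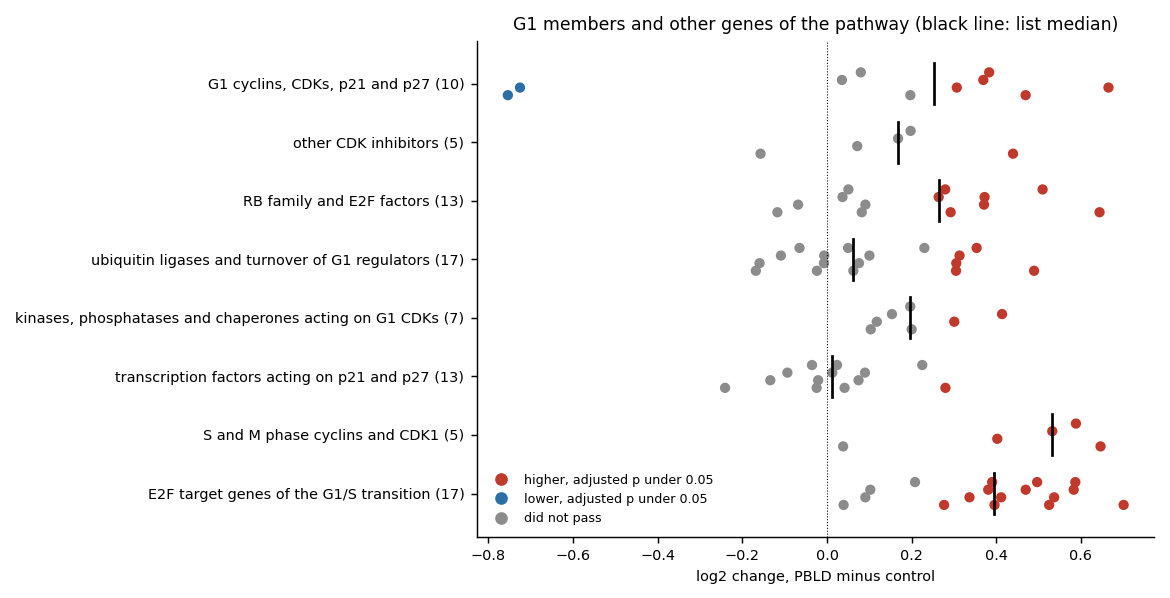
Log2 change, PBLD minus control, of each gene (horizontal axis) in the 10 G1 members and 7 lists of other genes of the pathway, with the number measured in brackets and each list's median as a black line. CDK4 and CDKN1B are the 2 genes that passed as lower. The medians run from 0.01 for the list named transcription factors acting on p21 and p27, which also holds MDM2, to 0.53 for S and M phase cyclins and CDK1.

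As a check of the cell line, all 10 hepatocyte and hepatoma markers were above background on all 6 arrays. Of these, 5 were called lower in PBLD cells, against 4.2% of all genes. Of other cell types' markers, 3 of 6 for fibroblasts and stellate cells (COL1A2, DCN and LUM), 3 of 4 for endothelium (PECAM1, CDH5 and KDR) and 2 of 4 for leukocytes (PTPRC and CD3E) were above background on no array. PDGFRB from the fibroblast and stellate list and CD14 and CD68 from the leukocyte list were above background on all 6 arrays, and the endothelial marker VWF on 1 PBLD and 3 control arrays. Summed unlogged intensity of the hepatocyte markers ran from 299812 to 326254 in PBLD arrays and from 330407 to 375162 in control arrays, and its part in the changes above was not tested. Across the array 1164 genes were higher and 842 lower, and quantile normalization turned this split to 1290 and 1332 and cyclic loess to 1177 and 1475, while under both the members stayed at 5 higher and 2 lower. Single arrays moved it too, to 741 higher and 989 lower without control replicate 3, 775 and 930 without PBLD replicate 2, 1293 and 657 without PBLD replicate 3, 884 and 520 without control replicate 1, 918 and 579 without control replicate 2 and 811 and 613 without PBLD replicate 1.

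**Figure D4:**
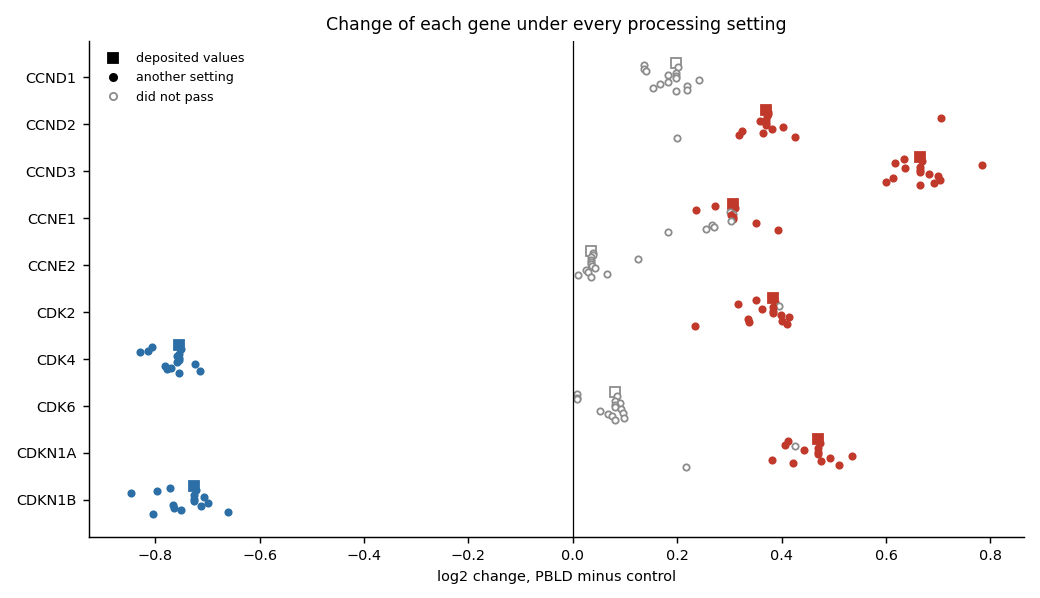
Log2 change, PBLD minus control, of each of the 10 genes (horizontal axis) with the deposited values (square) and under every other setting tried (circles), filled where the adjusted p was under 0.05. CDK4 runs from -0.83 to -0.71, CDKN1B from -0.85 to -0.66 and CCND3 from 0.60 to 0.78, all filled. CCNE1 runs from 0.18 to 0.39, filled in 8 of the 15 other settings and open in 7.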

How the data were processed

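The authors deposited a table of 47323 probes for 6 Illumina bead arrays with values on a log2 intensity scale, and every array has a median of 8. The submitters' processing notes name BeadStudio, and the background treatment, scaling and log step were not given in the sources used here. The deposited non-normalized signals were left out, since the names of their 12 per-sample columns cannot be tied to any sample. Groups came from the sample titles.

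Every probe was fitted in R 4.3.3 with limma 3.58.1 (lmFit, then eBayes) as PBLD minus control. Two-sided p-values were adjusted by Benjamini-Hochberg across the whole array, and 0.05 was the threshold. The probe with the highest mean stood for its gene. Of the probes, 30113 carry 1 symbol, 8 several and the rest none, and 30074 matched RefSeq names by Entrez identifier. The background limit of an array was the 95th percentile of 587 probes for keratin-associated genes and for taste, olfactory and vomeronasal receptors. Fold changes of dim probes are understated, since the deposited values appear not to be background-subtracted.

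The members and lists were chosen with earlier results of these data known. Named are all members, PBLD, up to 4 called genes per list and direction with the smallest p, and the 3 genes nearest in profile to each of 3 members. MYC, CCNA1 and the cell type markers were named outside this rule. The alternatives were quantile normalization, 75th percentile scaling, cyclic loess, normexp (offset 50) then quantile, robust eBayes with an intensity trend, array weights, a replicate block, removal of probes above background on fewer than 3 arrays, leaving out each array and averaging a gene's probes. The fit was checked on simulated data with known changes. It called 16% of 1.25-fold, 68% of 1.5-fold and 98% of 2-fold changes, with 7 false calls among 148. The simulation changed only 50 probes at each fold among 47323, whereas 2875 probes were called in the data. The adjustment was therefore stricter in the simulation, and these rates need not hold for the data. A gene that did not pass may still have changed by a small fold. Python 3.11.15 with matplotlib 3.10.9 drew the figures.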

Additional observations from a re-analysis of the deposited data

How the results depend on the processing

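CDK4, CDKN1B and CCND3 kept their call in all 15 alternatives, with log2 changes of -0.83 to -0.71, -0.85 to -0.66 and 0.60 to 0.78, and CCND1, CDK6 and CCNE2 passed in none of those in which they were fitted. No member gene changed sign in any of them. The 7 called members became 4 after normexp and 4 when a gene's probes were averaged (2 higher and 2 lower in both), and 6 to 7 without single arrays. CCND3 was higher in both, CCND2 only after normexp and CDK2 only with probes averaged. The 8 called member probes became 5 after normexp and 7 to 8 without single arrays. CCNE1 lost its call in 7 of 15 alternatives, CDKN1A in 2, and CCND2 and CDK2 in 1 each. Over all genes the count was 2006, 651 after normexp (245 higher and 406 lower), 1481 higher and 1014 lower after 75th percentile scaling, and 1404 to 1950 without single arrays. After normexp the lists gave 6 for E2F targets, 2 for the RB family and E2F factors, and 0 for turnover, for kinases, phosphatases and chaperones, for other CDK inhibitors and for factors acting on p21 and p27, where 5, 3, 3 and 1 were higher and 0, 0, 1 and 1 lower at an unadjusted p under 0.05. With probes averaged, the RB family and E2F factors gave 4 and the kinases, phosphatases and chaperones gave 1. The factors acting on p21 and p27 gave 3 after quantile normalization, after 75th percentile scaling and after cyclic loess (2 higher and 1 lower each), and 0 in limma with robust eBayes and an intensity trend (2 higher and 1 lower at an unadjusted p under 0.05). Without single arrays the counts ran from 12 to 13 for E2F targets, 3 to 6 for the RB family and E2F factors, 3 to 5 for turnover, 1 to 2 for kinases, phosphatases and chaperones, 0 to 2 for factors acting on p21 and p27, and 3 to 4 for the S and M phase cyclins and CDK1. The cause of these shifts was not tested.

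The groups share replicate numbers that nothing ties to a culture or day. Deviations from the group means correlated at 0.039, 0.142 and 0.186 for same-numbered arrays, and every array correlated best with its own number except control replicate 1, which correlated best with PBLD replicate 2 (0.070). With a replicate block the count over all genes was 2720, the members stayed at 7 and the factors acting on p21 and p27 were 3 (2 higher and 1 lower). Signal near or below background limits CCND2, CCNE2 and the dimmer probes of CCNE1 and CDKN1A, while the dimmer CDK2 probe is low but above background on all arrays.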
